A study of Homo sapiens with 4 samples.

Results

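GFI1, GFI1B and 4 genes of the LSD1-CoREST complex were followed in RNA-seq of human embryonic stem cells (hESCs) undergoing hematopoietic differentiation, with or without inhibition of TGFβ signaling. The complex was represented by KDM1A, which encodes the demethylase LSD1, by RCOR1, which encodes the scaffold CoREST, and by the deacetylase genes HDAC1 and HDAC2. These 6 genes were found by symbol among the 58365 rows of the deposited table. In all, 7 rows carried 1 of the symbols, because GFI1B was split into 2 rows, of which the one with the higher mean was used. The genes were selected on measured values of these same libraries, in which GFI1B lay higher and GFI1 lower after treatment. Their differences between the treatments are therefore given as a description, without a test.

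The cells were H1, an established hESC line. They received activin A at 40 ng/ml and BMP4 at 50 ng/ml for 2 days, then VEGF at 40 ng/ml and bFGF at 50 ng/ml for 3 days, and the latter pair for another 3 days with or without SB431542, an inhibitor of TGFβ type I receptors. RNA was taken at day 8 and sequenced as 2 libraries titled DMSO and 2 titled SB, numbered 1 and 2 in each group, and the study describes the sequenced cells as CD31+. The labels do not say that the libraries of a group come from separate cultures, and the study's general statement on independent experiments gives another number than the libraries here, so their spread may be technical.

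GFI1 and GFI1B are zinc-finger repressors that bind DNA through a carboxy-terminal array of fingers. A short SNAG domain at their amino terminus docks LSD1, which removes methyl groups from histone H3 lysine 4, and with it CoREST and the deacetylases HDAC1 and HDAC2. In the mouse embryo the pair is known for silencing endothelial genes while blood cells leave the hemogenic endothelium, the endothelial-to-hematopoietic transition (EHT). Later GFI1B acts mainly in erythroid cells and megakaryocytes and GFI1 mainly in granulocytes and lymphoid cells, and each can repress its own gene and that of the other.

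The paralogs are separate genes with similar ends, and the coding sequences are shown because reads from one are hardest to assign where the pair is identical. In GENCODE 29, which uses GRCh38, the GFI1 transcript ENST00000294702.5 has 422 codons and the GFI1B transcript ENST00000372122.3 has 330. The first 20 codons hold the SNAG domain and were identical at 48 of 60 bases. They lie at chr1:92483428-92483487 on the minus strand for GFI1 and at chr9:132986679-132986738 on the plus strand for GFI1B, in exon 2 of each transcript. They are written 5′ to 3′ with capitals for bases that are the same in both.
GFI1: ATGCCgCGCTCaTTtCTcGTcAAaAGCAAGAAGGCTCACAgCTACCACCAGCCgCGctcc
GFI1B: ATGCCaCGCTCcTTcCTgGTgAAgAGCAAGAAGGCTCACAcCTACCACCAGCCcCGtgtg
The last 3 coding exons hold zinc fingers and have the same length in both genes, with 82.7% identity over 480 bases. The last of them, exon 7, is at chr1:92476032-92476207 and chr9:132990872-132991047, and was identical at 149 of 176 bases.
GFI1: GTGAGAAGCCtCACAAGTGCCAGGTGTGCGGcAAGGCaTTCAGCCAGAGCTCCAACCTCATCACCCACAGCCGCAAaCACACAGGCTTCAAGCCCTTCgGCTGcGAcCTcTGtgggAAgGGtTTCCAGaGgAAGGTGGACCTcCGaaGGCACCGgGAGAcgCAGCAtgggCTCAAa
GFI1B: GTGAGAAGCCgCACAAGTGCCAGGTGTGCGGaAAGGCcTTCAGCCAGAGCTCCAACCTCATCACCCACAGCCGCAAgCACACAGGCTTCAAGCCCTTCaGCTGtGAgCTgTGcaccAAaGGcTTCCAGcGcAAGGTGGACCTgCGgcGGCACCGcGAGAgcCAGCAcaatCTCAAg
This exon also holds the longest stretch that any pair of GFI1 and GFI1B transcripts had in common without a mismatch, 38 bases. For HDAC1 and HDAC2 the longest such stretch was 17 bases. Before the shared exons the coding sequences differ in length, with 786 bases in GFI1 and 510 in GFI1B.

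GFI1 (ENSG00000162676.11, chromosome 1, 92474762 to 92486876 on GRCh38) measured 13.7 and 11.3 FPKM in DMSO replicates 1 and 2, against 4.47 and 4.32 FPKM in SB replicates 1 and 2. FPKM divides the fragments of a gene by its transcript length and by the mapped fragments of the library, so levels of different genes can be compared per length. Both SB libraries lay below both DMSO libraries. The mean was 12.5 ± 1.74 FPKM with DMSO and 4.40 ± 0.104 FPKM with SB (SD, n = 2 each), a DMSO level 2.85 times that with SB. On the scale used for all differences below, log2(FPKM + 1), the SB mean minus the DMSO mean was -1.32 (SE 0.18), with -1.43 between the libraries numbered 1 and -1.21 between those numbered 2. A pseudocount of 1 understates the change of a gene this low, and with 0.1 the difference was -1.48. An estimated 212 to 226 fragments stood behind the value of SB replicate 1 and 806 to 860 behind that of DMSO replicate 1, the ranges covering the shortest and the longest coding transcript. Counting error alone would then give a relative SD of 6.65% to 6.87% and of 3.41% to 3.52%.

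GFI1B (ENSG00000165702.13, chromosome 9, 132945533 to 132991687) measured 28.2 and 21.8 FPKM with DMSO, against 76.3 and 64.5 FPKM with SB. Here both SB libraries lay above both DMSO libraries. Its mean was 25.0 ± 4.52 FPKM with DMSO and 70.4 ± 8.34 FPKM with SB (SD, n = 2 each), 2.82 times as high. The log2 difference was 1.47 (SE 0.21), with 1.41 within replicate number 1 and 1.52 within number 2. The unused row of the symbol spans 132944000 to 132953763, the ends of the processed transcript GFI1B-204, and was listed at 0 in 3 libraries and at 0.0141 FPKM in SB replicate 2. With both rows summed the log2 difference was still 1.47.

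**Figure D1:**
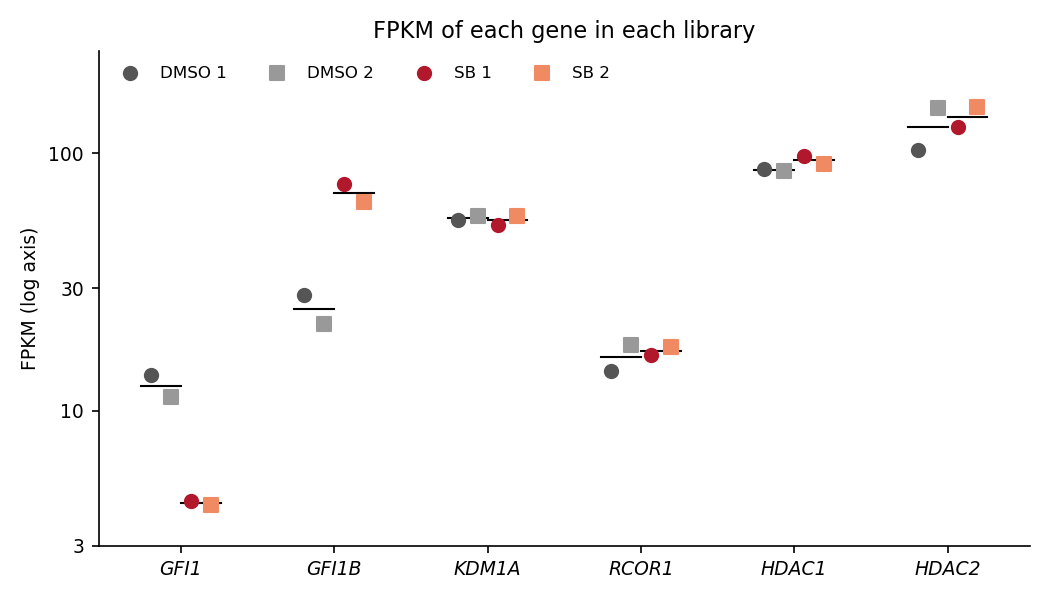
FPKM of the 6 genes (log axis) in the 4 libraries, gray for DMSO and red or orange for SB, circles for replicate 1, squares for replicate 2 and black lines for group means. GFI1 is at 13.7 and 11.3 FPKM with DMSO and 4.47 and 4.32 FPKM with SB, GFI1B at 28.2 and 21.8 FPKM and at 76.3 and 64.5 FPKM, while the 2 groups lie close together for the other 4 genes.

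The proportion of the paralogs differed between the groups. GFI1B FPKM was 2.05 and 1.93 times GFI1 FPKM in the DMSO libraries and 17.1 and 14.9 times in the SB libraries. GFI1B thus made up 67.2% and 65.9% of the summed FPKM of the pair with DMSO and 94.5% and 93.7% with SB. The 2 groups of ratios did not overlap, and the libraries within a group lay close together. As log2(GFI1B + 1) minus log2(GFI1 + 1), the libraries gave 0.98 and 0.89 with DMSO and 3.82 and 3.62 with SB. The SB mean exceeded the DMSO mean by 2.78, with 2.84 and 2.73 within replicate numbers 1 and 2. The pair was chosen for these opposite directions, and the contrast has no test. The sum of both paralogs was 41.9 and 33.1 FPKM with DMSO and 80.8 and 68.8 FPKM with SB, so that the sum followed GFI1B.

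**Figure D2:**
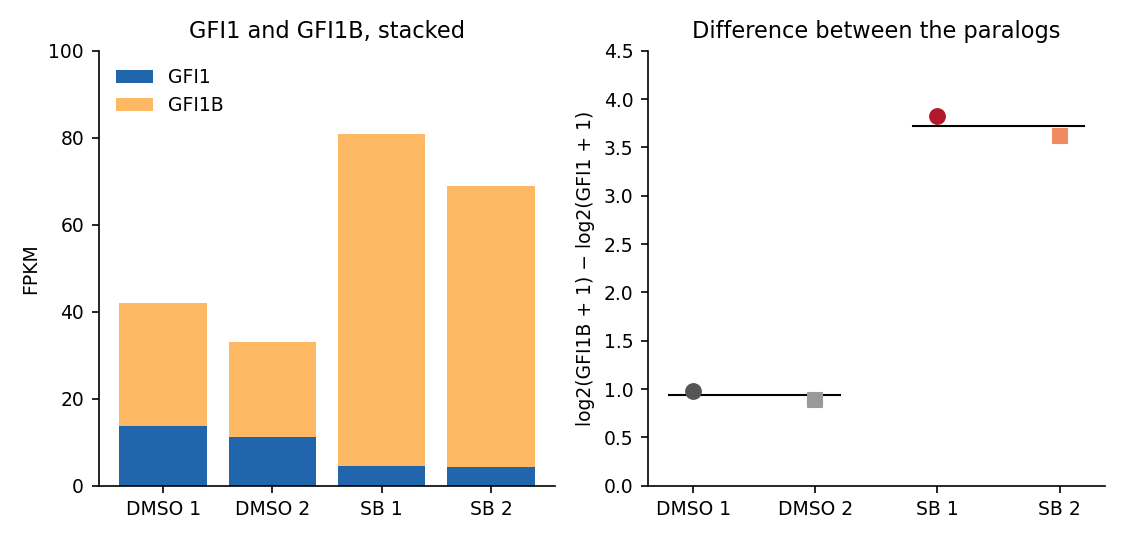
Left, FPKM of GFI1 (blue) and GFI1B (orange) stacked for each library, with totals of 41.9, 33.1, 80.8 and 68.8 FPKM. Right, log2(GFI1B + 1) minus log2(GFI1 + 1) for each library, lines marking the group means, with 0.98 and 0.89 for DMSO and 3.82 and 3.62 for SB.

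The 4 complex genes showed no shift of that size. KDM1A (chromosome 1, 23019448 to 23083689), the LSD1 gene, had 55.0 and 57.3 FPKM with DMSO and 52.9 and 57.2 FPKM with SB. The groups overlapped, and the log2 difference was -0.03 (SE 0.16), or 0.03 without SB replicate 1. RCOR1 (chromosome 14, 102592661 to 102730576), whose product links LSD1 to the deacetylases and to nucleosomes, had 14.3 and 18.1 FPKM with DMSO and 16.6 and 17.7 FPKM with SB. These groups overlapped as well, with a log2 difference of 0.08 (SE 0.19) that was 0.19 within number 1 and -0.03 within number 2, and -0.08 without DMSO replicate 1.

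HDAC1 (chromosome 1, 32292086 to 32333635) had 86.8 and 85.6 FPKM with DMSO and 97.5 and 91.2 FPKM with SB. Both SB values lay above both DMSO values, by a log2 difference of 0.13 (SE 0.15), or 1.10 times in FPKM. HDAC2 (chromosome 6, 113933028 to 114011308), which can take the place of HDAC1 in the complex, had 103 and 149 FPKM with DMSO and 127 and 151 FPKM with SB. Its groups overlapped, and its log2 difference of 0.15 (SE 0.24) was smaller than its mean difference of 0.39 between replicate numbers 2 and 1, and became -0.11 without DMSO replicate 1. The HDAC1 to HDAC2 ratio followed the number too, at 0.841 and 0.573 with DMSO and 0.770 and 0.605 with SB.

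Counted over the 6 genes, GFI1B and HDAC1 had both SB libraries above both DMSO libraries, a pattern found in 21.5% of the 14909 genes tested. GFI1 was the member with both SB libraries below, as for 16.0% of genes tested. Among all tested genes ordered by their log2 difference, GFI1B stood at position 88 from the highest and GFI1 at position 158 from the lowest. An absolute difference smaller than that of the gene was found in 98.6% of tested genes for GFI1B and 98.2% for GFI1, but in 8.20% for KDM1A, 23.2% for RCOR1, 35.9% for HDAC1 and 41.97% for HDAC2. The paralogs were selected on these same differences, so their far positions follow from the selection and are no test.

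With DMSO the order of levels per length was HDAC2, HDAC1, KDM1A, GFI1B, RCOR1 and GFI1. With SB GFI1B moved past KDM1A, 76.3 and 64.5 FPKM against 52.9 and 57.2 FPKM. The narrowest gap between neighbors in the order was between RCOR1 and GFI1 with DMSO, where the lower RCOR1 library (14.3 FPKM) and the higher GFI1 library (13.7 FPKM) nearly met. KDM1A amounted to 1.31 and 1.73 times the summed FPKM of GFI1 and GFI1B with DMSO and to 0.655 and 0.832 times with SB. For RCOR1 the corresponding values were 0.342 and 0.547 with DMSO and 0.205 and 0.257 with SB. Both ratios were lower in each SB library, while the FPKM of neither complex gene was separated by treatment.

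Reads of overlapping genes cannot be told apart where strand was not used in counting, and its use is not stated. HDAC2-AS2 overlaps HDAC2 on the other strand and had between 0.925 and 1.86 FPKM over the libraries, while an antisense gene over KDM1A was listed at or near 0. The processed pseudogenes HDAC1P1 and HDAC1P2 had 0.279 FPKM or less. The nearest tested genes beside the paralogs did not separate by treatment. RPAP2 and EVI5, which flank GFI1, had log2 differences of 0.12 (limma adjusted p = 0.960) and -0.20 (adjusted p = 0.914). TSC1 lies on the other strand, 899 bases from the GFI1B row that was used, and overlaps the unused row. It had a log2 difference of 0.16 (limma adjusted p = 0.893), and the pseudogene EEF1A1P5 on the far side had 0.10 (adjusted p = 0.934). In all 4 neighbors the groups overlapped.

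Across the table, the libraries differed between replicate numbers about as much as between treatments. The median absolute log2 difference over tested genes was 0.19 between SB and DMSO and 0.25 between the numbers, and the median signed difference of SB minus DMSO was 0.04. FPKM values summed to between 570844 and 612614 per library, and the estimated depth was 19700000 to 25900000 fragments, lowest in SB replicate 1. At an adjusted p under 0.05, limma called 4 genes higher with SB (0.0268% of genes tested) and 16 lower (0.107%), and at an unadjusted p under 0.05 it had 716 higher (4.80%) and 769 lower (5.16%). The 20 calls fell to 0 without DMSO replicate 1 and to 7 without SB replicate 1. The collection marker PECAM1, which encodes CD31, was high throughout, at 197 and 163 FPKM with DMSO and 182 and 153 FPKM with SB, with a log2 difference of -0.11 (limma adjusted p = 0.943).

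Other subunits of the complex were followed in a list of 9 genes, all of which passed the filter. By limma 0 of 9 had an adjusted p under 0.05 and 0 an unadjusted p under 0.05. Their median log2 difference was 0.01, against 0.04 over all tested genes, and lay between -0.21 and -0.08 with any 1 library left out. RCOR2, a CoREST paralog, had 19.1 and 14.7 FPKM with DMSO and 13.4 and 10.2 FPKM with SB, which put both SB libraries below both DMSO libraries (log2 difference -0.48, SE 0.22, limma adjusted p = 0.607). ZMYM3, a zinc-finger subunit, had the same arrangement with a difference of -0.15 (SE 0.16, limma adjusted p = 0.879). Thus both SB libraries lay below in 2 of 9 subunits and above in 0 (16.0% and 21.5% over all tested genes). RCOR3, the remaining CoREST paralog, differed by 0.12 (SE 0.17, limma adjusted p = 0.922), with overlapping groups.

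In this list the difference between replicate numbers exceeded that between treatments for 6 of 9 genes. Over all tested genes the median absolute log2 difference was also larger between numbers (0.25) than between treatments (0.19). Such counts are therefore not particular to the genes of the complex. HMG20B, a subunit with an HMG box, had 120 and 64.6 FPKM with DMSO and 130 and 75.5 FPKM with SB. Its mean log2 difference was 0.17 by treatment (SE 0.41, limma adjusted p = 0.964) and -0.83 between numbers 2 and 1. CTBP1, a corepressor picked out after its values were seen, had 204 and 86.4 FPKM with DMSO and 193 and 91.98 FPKM with SB, a difference of 0.01 by treatment and -1.14 by number. Among the members, 3 of the 4 core genes also differed more between the numbers than between treatments, by a median absolute log2 of 0.14 against 0.10. GFI1 and GFI1B differed by -0.15 and -0.30 between the numbers, well below their difference by treatment.

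**Figure D3:**
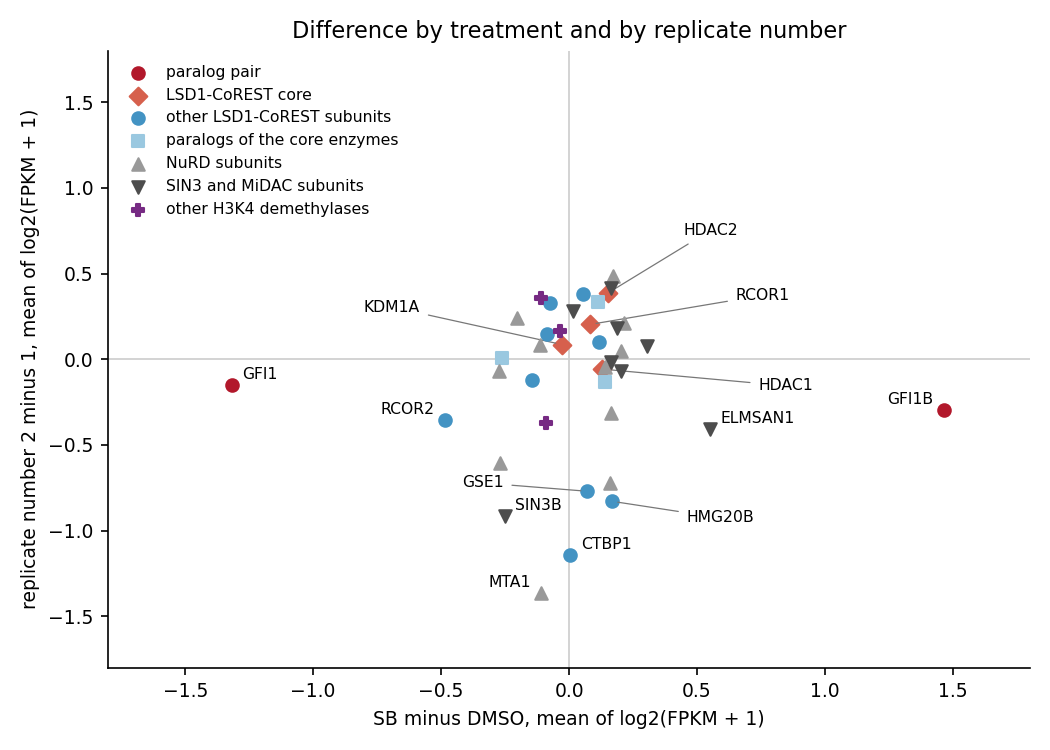
Each point is a tested gene of the paralog pair, the core or a related complex, with the mean log2(FPKM + 1) of SB minus DMSO on the x axis and of replicate number 2 minus 1 on the y axis. GFI1 (-1.32) and GFI1B (1.47) lie far out along x, whereas CTBP1 (-1.14) and MTA1 (-1.37) lie far out along y.

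Relatives of the core enzymes and the sister complexes that share HDAC1 and HDAC2 did not pass the test either. KDM1B (LSD2), HDAC3 and HDAC8 had log2 differences of 0.11 (SE 0.23, limma adjusted p = 0.959), 0.14 (SE 0.16, adjusted p = 0.890) and -0.26 (SE 0.18, adjusted p = 0.764), and their median of 0.11 was -0.11 without DMSO replicate 1. For the nucleosome remodeling NuRD complex, limma gave 0 of 11 subunits at an adjusted p under 0.05 and 0 at an unadjusted p under 0.05, with a median log2 difference of 0.14 that was -0.03 without DMSO replicate 2. MBD2 and CHD3, the methyl-DNA binding and helicase subunits with the lowest values, had -0.27 (limma adjusted p = 0.802) and -0.27 (adjusted p = 0.890), RBBP7 had 0.22 (adjusted p = 0.812) and MTA3 had -0.20 (adjusted p = 0.850). Of 8 SIN3 and MiDAC subunits, limma likewise gave 0 at an adjusted and 0 at an unadjusted p under 0.05. Both SB libraries lay above both DMSO libraries in 5 and below in 0 (21.5% and 16.0% over all tested genes). ELMSAN1, a MiDAC scaffold, was the farthest from 0, with 13.5 and 10.4 FPKM with DMSO and 21.2 and 15.001 FPKM with SB (log2 difference 0.55, SE 0.24, limma adjusted p = 0.572). DNTTIP1, its partner in that complex, had 0.31 (limma adjusted p = 0.681), BRMS1 0.20 (adjusted p = 0.795) and SIN3B -0.25 (adjusted p = 0.942). The lysine 4 demethylases of the other family, KDM5A, KDM5B and KDM5C, had between -0.11 and -0.04 (limma adjusted p of 0.959 or more), their median turning to 0.10 without DMSO replicate 2 and 0.13 without SB replicate 2, and limma gave 0 of 3 at an unadjusted p under 0.05.

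A SNAG domain is also present in other repressors, and 3 of 8 such genes passed the filter. SNAI2, a regulator of epithelial-to-mesenchymal transition, had 8.27 and 8.58 FPKM with DMSO and 3.52 and 4.36 FPKM with SB (log2 difference -0.94, SE 0.18, limma adjusted p = 0.208). SNAI1, with a like role, had 7.94 and 6.39 FPKM with DMSO and 3.34 and 3.98 FPKM with SB (log2 difference -0.81, SE 0.20, limma adjusted p = 0.289). Both had unadjusted p-values under 0.05 in limma (5.16% were lower over all tested genes), and neither passed after adjustment. Both also had their SB libraries below their DMSO libraries (16.0% over all tested genes). SNAI3 had -0.44 (limma adjusted p = 0.769) and overlapping groups. The neuroendocrine factor INSM1 was listed at 0 in all 4 libraries.

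Factors that bind enhancers of GFI1 and GFI1B in blood cells were followed as upstream candidates known from earlier work, 12 in all. With limma 0 had an adjusted p under 0.05, 2 were higher at an unadjusted p under 0.05 (4.80% over all tested genes) and 0 were lower. Both SB libraries lay above both DMSO libraries for 5 (21.5% over all tested genes), and the median log2 difference was 0.30. RUNX1, required for EHT, had 35.3 and 33.6 FPKM with DMSO and 69.8 and 53.6 FPKM with SB (log2 difference 0.81, SE 0.19, limma adjusted p = 0.280). GATA1, the erythroid and megakaryocyte regulator, had 42.8 and 40.9 FPKM with DMSO and 63.0 and 62.7 FPKM with SB (log2 difference 0.58, SE 0.15, limma adjusted p = 0.322). SPI1 (PU.1) had 55.4 and 26.2 FPKM with DMSO and 113 and 63.9 FPKM with SB (log2 difference 1.14, SE 0.45, limma adjusted p = 0.520), and its values in both groups were higher in the library numbered 1. LYL1 had 0.45 (SE 0.26, limma adjusted p = 0.719) with overlapping groups. Relative to RUNX1, GFI1 FPKM was 0.390 and 0.336 with DMSO and 0.0640 and 0.0806 with SB, whereas GFI1B FPKM was 0.799 and 0.648 with DMSO and 1.09 and 1.20 with SB.

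Genes described elsewhere as targets of GFI1 or GFI1B lay on both sides. Of 20 such genes 17 were tested, and limma gave 0 with an adjusted p under 0.05, while 2 were higher and 4 lower at an unadjusted p under 0.05 (4.80% and 5.16% over all tested genes). In 9 both SB libraries lay above and in 4 below both DMSO libraries (21.5% and 16.0% over all tested genes), and the median log2 difference was 0.21. ID1, an inhibitor of helix-loop-helix factors, had 470 and 505 FPKM with DMSO and 179 and 187 FPKM with SB (log2 difference -1.41, SE 0.15, limma adjusted p = 0.0803). SOCS3, a feedback inhibitor of cytokine signaling, had 31.0 and 22.3 FPKM with DMSO and 12.8 and 10.7 FPKM with SB (log2 difference -1.11, SE 0.23, limma adjusted p = 0.224). RGS18, which tunes G protein signaling in platelets, had 1.45 and 4.07 FPKM with DMSO and 5.98 and 8.26 FPKM with SB (log2 difference 1.19, SE 0.40, limma adjusted p = 0.439). The granule protease gene ELANE was listed at 0 in all libraries. SPI1 also stands in this list and in the granulocyte and monocyte list.

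Markers of several cell types were read beside the members. In RNA from a mixed sample, fewer cells of a type cannot be told apart from less RNA per cell. The 19 endothelial markers had a summed FPKM of 2840 to 3477 with DMSO and 2683 to 3198 with SB, and a median log2 difference of -0.11. For them limma gave 0 with an adjusted p under 0.05. At an unadjusted p under 0.05, 2 were higher and 4 lower (4.80% and 5.16% over all tested genes). ENG, a TGFβ co-receptor, had 64.2 and 47.9 FPKM with DMSO and 17.8 and 14.7 FPKM with SB (log2 difference -1.72, limma adjusted p = 0.0986). ROBO4, which guards vessel integrity, had -1.09 (limma adjusted p = 0.135). Toward higher values, ICAM2 had 1.07 (limma adjusted p = 0.170) and the tight junction gene CLDN5 had 1.04 (adjusted p = 0.318). No endothelial marker was listed at 0.

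Blood markers were mostly higher with SB. Of 12 pan-hematopoietic markers 10 were tested, and their summed FPKM was 308 to 323 with DMSO and 467 to 475 with SB. With limma 0 had an adjusted p under 0.05. At an unadjusted p under 0.05, 6 were higher and 0 lower (4.80% and 5.16% over all tested genes). Both SB libraries lay above in 9 (21.5% over all tested genes). CORO1A had 1.57 (limma adjusted p = 0.0948), RAC2 had 1.27 (adjusted p = 0.105), WAS had 1.21 (adjusted p = 0.424) and VAV1 had 0.90 (adjusted p = 0.173). The defining pan-leukocyte gene PTPRC, named outside the rule, reached 0.202 FPKM at most.

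Megakaryocyte markers all lay on the side of GFI1B. Of 12 markers 11 were tested, and all 11 had both SB libraries above both DMSO libraries and an unadjusted p under 0.05 by limma (21.5% and 4.80% over all tested genes), with 0 at an adjusted p under 0.05 and a median log2 difference of 1.59. Their summed FPKM was 357 to 377 with DMSO and 861 to 946 with SB. PF4, a platelet chemokine, had 32.6 and 49.7 FPKM with DMSO and 199 and 322 FPKM with SB (log2 difference 2.62, limma adjusted p = 0.0969). PPBP had 2.83 (limma adjusted p = 0.0798), GP1BB 2.15 (adjusted p = 0.0753) and PLEK 1.95 (adjusted p = 0.0803).

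Markers of erythroid cells, which also express GFI1B, had both SB libraries below both DMSO libraries in 7 of 13 tested genes (16.0% over all tested genes). The groups overlapped in the other 6. The list holds 16 markers, and their summed FPKM was 1786 to 2132 with DMSO and 1441 to 1752 with SB. Limma gave 0 with an adjusted p under 0.05. At an unadjusted p under 0.05, 0 were higher and 6 lower (4.80% and 5.16% over all tested genes). HBZ, the embryonic zeta globin gene, had 146 and 109 FPKM with DMSO and 33.2 and 24.1 FPKM with SB (log2 difference -2.12, limma adjusted p = 0.0910). ALAS2, the erythroid heme synthesis enzyme gene, had -2.06 (limma adjusted p = 0.0605) and RHAG -1.29 (adjusted p = 0.169).

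Of 14 granulocyte and monocyte markers 9 were tested, with summed FPKM of 114 to 135 with DMSO and 272 to 309 with SB. Limma gave 0 with an adjusted p under 0.05. At an unadjusted p under 0.05, 4 were higher and 0 lower (4.80% and 5.16% over all tested genes). CSF1R, the receptor of the macrophage growth factor, had 2.77 and 1.83 FPKM with DMSO and 14.4 and 12.5 FPKM with SB (log2 difference 2.14, limma adjusted p = 0.0753), FCER1G had 1.33 (adjusted p = 0.144) and TYROBP 1.31 (adjusted p = 0.0948). Not all of the list rose. AZU1 and CEBPA, named after their values were seen, had -0.31 (limma adjusted p = 0.770) and -0.06 (adjusted p = 0.980). MPO, ELANE, PRTN3, CEBPE and CD14 did not pass the filter, with 0.333 FPKM or less.

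Hepatic endoderm markers held the 4 list genes, outside the members, with an adjusted p under 0.05 in limma, all lower with SB (0.107% over all tested genes). APOA1 had 64.2 and 56.3 FPKM with DMSO and 3.31 and 3.39 FPKM with SB (log2 difference -3.81, limma adjusted p = 0.0201), AFP had -3.55 (adjusted p = 0.0232), TTR -3.001 (adjusted p = 0.0353) and APOA2 -2.93 (adjusted p = 0.0365). With any 1 of the 4 libraries left out, 0 list genes kept an adjusted p under 0.05. All 6 tested hepatic markers had both SB libraries below (16.0% over all tested genes), and the summed FPKM was 278 to 313 with DMSO and 27.6 to 30.8 with SB. Mesenchyme and smooth muscle markers summed to 265 to 309 FPKM with DMSO and 116 to 120 FPKM with SB. For them limma gave 0 of 8 with an adjusted p under 0.05. At an unadjusted p under 0.05, 0 were higher and 7 lower (4.80% and 5.16% over all tested genes). COL1A1 had -2.46 (limma adjusted p = 0.0646), TAGLN -1.70 (adjusted p = 0.0798), COL3A1 -1.03 (adjusted p = 0.1996) and LUM -0.999 (adjusted p = 0.463). A CD31 gate is meant to leave out the cells of both sets. GFI1 lay lower with SB together with these and the erythroid set, GFI1B lay higher together with the megakaryocyte, pan-hematopoietic and granulocyte and monocyte sets (medians 1.59, 0.78 and 0.82), and the part of any of these cells in the values of the paralogs was not tested.

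**Figure D4:**
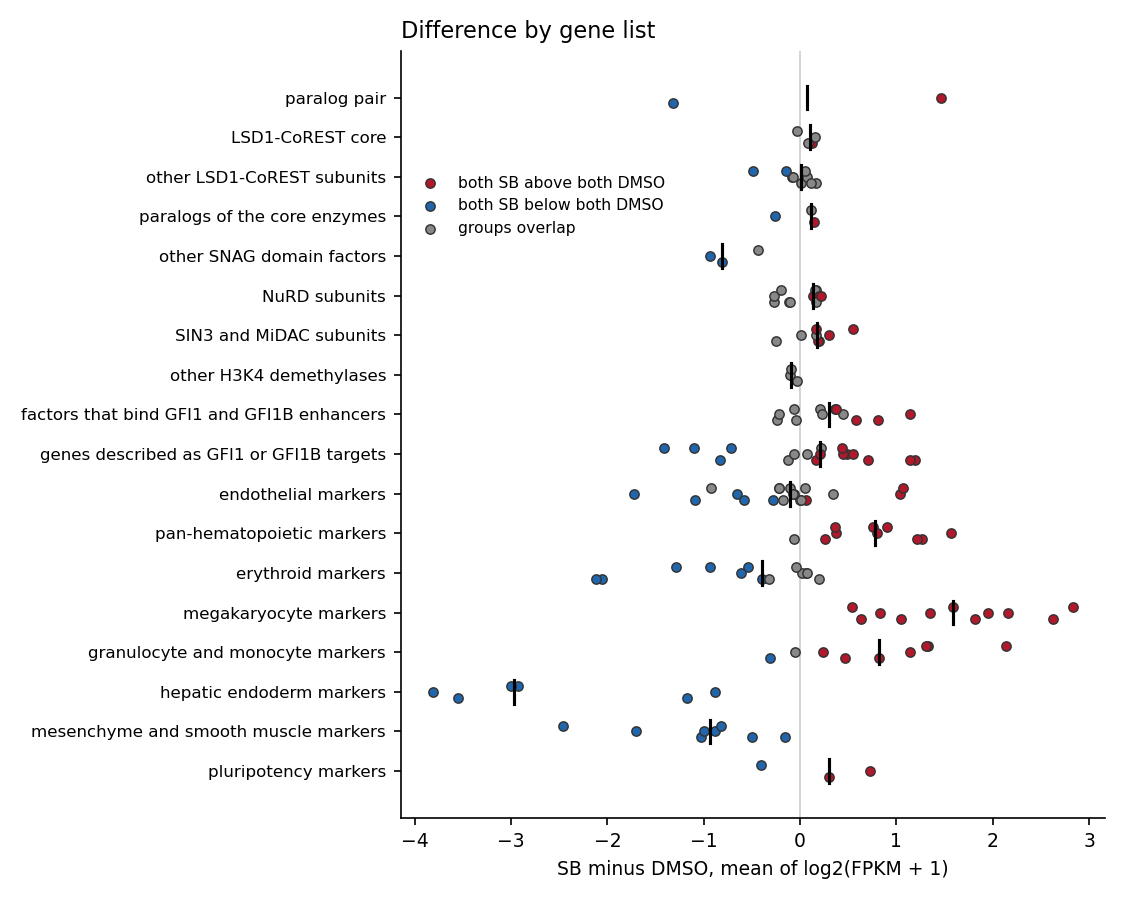
Mean log2(FPKM + 1) of SB minus DMSO for every tested gene of each list (points, red or blue where the 2 groups do not overlap, gray where they do) with the list median as a black bar. The LSD1-CoREST core stays within -0.03 to 0.15, the megakaryocyte markers lie between 0.54 and 2.83, and the hepatic endoderm markers between -3.81 and -0.89.

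The paralogs were also set against the summed markers of each library. Such a sum is carried by its most abundant genes, and the lists were chosen with earlier results known. In the megakaryocyte sum, PF4 alone gave 49.7 of 357 FPKM in DMSO replicate 2 and 322 of 946 FPKM in SB replicate 2. What these ratios owe to the number of cells of a type was not tested. GFI1 per 1000 FPKM of endothelial markers was 3.95 and 3.97 with DMSO and 1.40 and 1.61 with SB. Per 1000 FPKM of pan-hematopoietic markers GFI1 was 44.6 and 34.96 with DMSO and 9.58 and 9.10 with SB. Its SB libraries were below its DMSO libraries also per erythroid markers (7.70 and 5.30 against 3.10 and 2.47) and per megakaryocyte markers (36.4 and 31.6 against 5.19 and 4.57). Per granulocyte and monocyte markers GFI1 was 102 and 99.0 with DMSO and 14.5 and 15.9 with SB. Per mesenchyme and smooth muscle markers the groups were closer, at 44.5 and 42.6 with DMSO and 37.1 and 37.4 with SB, a ratio of means of 0.854 against 0.351 for GFI1 itself. Per hepatic endoderm markers the direction was the opposite, with 49.5 and 36.1 for DMSO and 162 and 141 for SB.

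GFI1B per 1000 FPKM of endothelial markers was 8.10 and 7.67 with DMSO and 23.9 and 24.0 with SB. Per 1000 FPKM of pan-hematopoietic markers GFI1B was 91.4 and 67.5 with DMSO and 164 and 136 with SB, and per erythroid markers 15.8 and 10.2 with DMSO and 53.0 and 36.8 with SB. Per 1000 FPKM of megakaryocyte markers, however, it was 74.6 and 60.9 with DMSO and 88.6 and 68.2 with SB. On that basis the groups overlapped, and the ratio of the means was 1.16, against 2.82 for GFI1B itself. Per granulocyte and monocyte markers the ratio was 1.21, from 209 and 191 with DMSO and 247 and 237 with SB. Per mesenchyme and per hepatic markers it was 6.86 and 28.5.

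**Figure D5:**
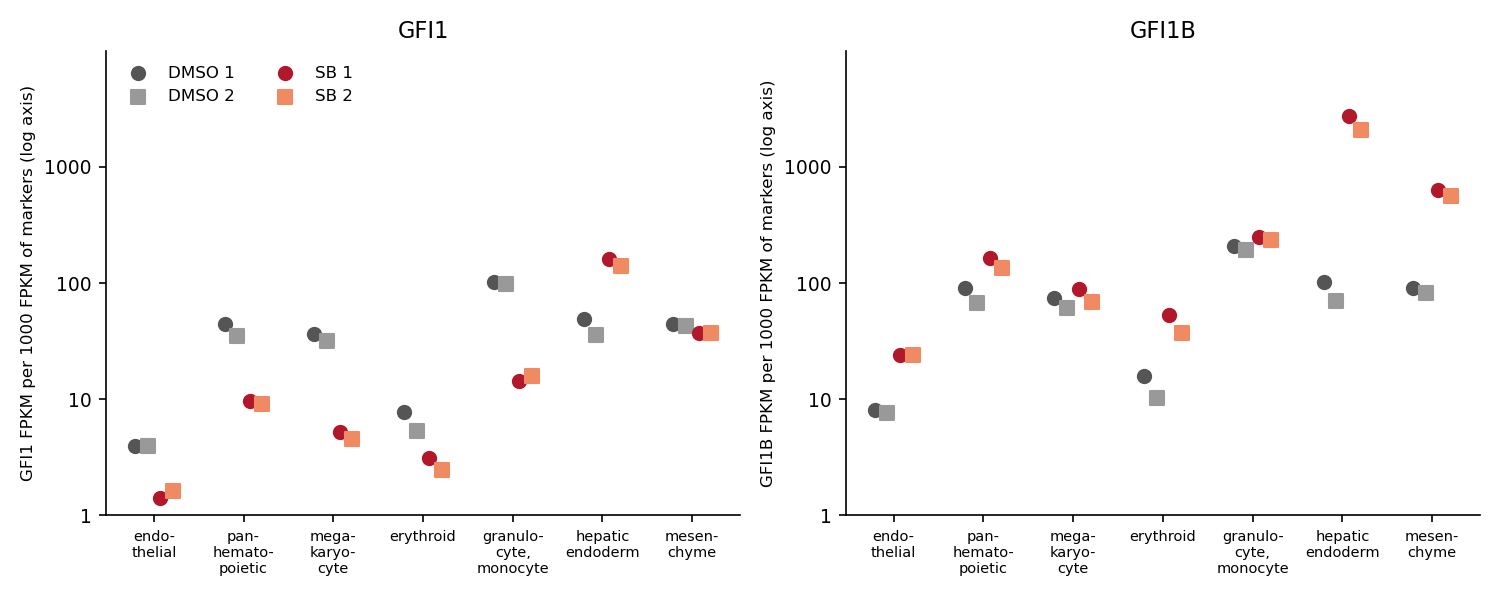
GFI1 (left) and GFI1B (right) FPKM per 1000 FPKM of each of 7 summed marker lists in each library, on a log axis. GFI1 is lower in both SB libraries except per hepatic endoderm markers, where it is higher (162 and 141 against 49.5 and 36.1), and GFI1B is higher in both SB libraries except per megakaryocyte markers, where DMSO replicate 1 (74.6) lies above SB replicate 2 (68.2).

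The genes closest to each paralog in their pattern over the 4 libraries were found by the Euclidean distance of centered log2(FPKM + 1), among 10008 genes with a mean of at least 5 FPKM. Closest to GFI1 were CCDC80 (distance 0.0955), the ligand gene BMP4 (0.130), IGLON5 (0.135), the endothelial lipase gene LIPG (0.179) and SP6 (0.184), and 23 genes lay within 0.3. BMP4 had 17.7 and 14.4 FPKM with DMSO and 5.49 and 5.04 FPKM with SB. Closest to GFI1B were the interferon-induced gene OAS3 (0.155), the actin regulator CORO1A (0.157), the platelet tubulin gene TUBB1 (0.207), the phosphatase gene PTPN6 (0.213) and ALOX12, a platelet lipoxygenase gene (0.215), and 7 genes lay within 0.3. TUBB1 had 3.94 and 3.55 FPKM with DMSO and 12.03 and 10.1 FPKM with SB. With 4 libraries, such a likeness rests mostly on the step between the groups.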

How the data were processed

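RNA-seq values of 4 libraries (DMSO and SB, replicates 1 and 2 by sample title) were analyzed. The authors deposited FPKM per gene, and the submitters' processing notes name BWA, Bowtie, RSEM and hg19, without versions or roles. Of identifiers with a single row, however, 99.996% have their GRCh38 position in GENCODE 29 once 1 is added to the start, so coordinates are given on GRCh38, counted from 1. No counts were used, and depth was estimated from single-exon genes of 1000 to 6000 nt, whose low values step by whole fragments (96.1% to 97.1% within 3%).

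The analysis scale was log2(FPKM + 1). Genes averaging at least 1 FPKM in either group (14909) were fitted with limma 3.58.1 in R 4.3.3 (empirical Bayes with trend, group as the only term), with two-sided p-values adjusted by the Benjamini-Hochberg method at 0.05. The p-values set the difference between the groups against the spread between these libraries. With group as the only term, that spread includes the difference between replicate numbers. The fit was run on simulated data with independent noise in each library. That simulation left out the likeness by replicate number seen in these data. Sequences came from GENCODE 29 transcripts.

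The 6 members and all gene lists were chosen with earlier results of these data known. Named genes are the members, the called genes of each list filled up to 4 tested genes by absolute difference, the 5 nearest patterns and adjacent genes of each paralog, and PECAM1. Of these, 1 is not reported here. Other names are stated as chosen after their values were seen. Alternatives were a pseudocount of 0.1, other filters, upper-quartile scaling, quantile normalization, the replicate block, summed rows and leaving out each library. An exact permutation test of 2 against 2 libraries could not reach the threshold and was not used.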

Additional observations from a re-analysis of the deposited data

How the results depend on the processing

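GFI1, GFI1B and the contrast kept their direction under every alternative run. GFI1 moved to -1.48 and the paralog contrast to 2.98 with a pseudocount of 0.1. With 1 library left out, the lone library of its group being assumed to vary like the others, GFI1 ranged from -1.45 to -1.19, GFI1B from 1.29 to 1.64 and the contrast from 2.68 to 2.88. The sign changed under at least 1 alternative for 7 of 23 values, namely KDM1A (-0.08 to 0.03), RCOR1 (-0.08 to 0.24), HDAC2 (-0.11 to 0.42) and 4 medians (other LSD1-CoREST subunits, paralogs of the core enzymes, NuRD subunits and H3K4 demethylases). Of 14909 genes, 20 were called, and leaving out 1 library gave between 0 (1101 at an unadjusted p under 0.05 in limma, without DMSO replicate 1) and 16. Without the filter 0 were called (limma, 2739 at an unadjusted p under 0.05), and quantile normalization called 31 (9 higher, 22 lower). Of 141 list genes outside the members, 4 were called, and 0 were called with any library left out. The numbers 1 and 2 pair the libraries by name only. A replicate block called 1564 genes (820 higher, 744 lower), including all 20, and 64 of the list genes. Among these were other LSD1-CoREST subunits (1 lower), SIN3 and MiDAC subunits (1 higher), SNAG factors (2 lower) and enhancer-binding factors (4 higher). Targets (4 higher, 4 lower), megakaryocyte markers (11 higher) and erythroid markers (7 lower) were called too. Of the NuRD subunits, the paralogs of the core enzymes and the other H3K4 demethylases, 0 were called. The deviations of the 2 groups from their means correlated by number (r = 0.53 across genes, which are not independent replicates), as a hint from the data. Counts and the block aside, 91 of 92 values with 1 library left out, and 51 of 54 under other settings, moved by no more than the spread between replicates. For single genes and the contrast, leaving out 1 of 2 libraries cannot move the difference beyond that spread, so these values are no check. With 2 libraries a group, small differences of the complex genes were not detectable.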

Other observations

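Pluripotency markers, a check of undifferentiated cells, were low for the defining genes. POU5F1 had 0.442 and 0.473 FPKM with DMSO and 1.23 and 1.60 FPKM with SB (log2 difference 0.72, limma adjusted p = 0.403), and ZFP42 had 1.07 and 1.69 FPKM with DMSO and 0.569 and 1.03 FPKM with SB (log2 difference -0.40, limma adjusted p = 0.760). DNMT3B, which is also expressed outside pluripotent cells, had 42.3 and 36.5 FPKM with DMSO and 53.1 and 44.4 FPKM with SB (log2 difference 0.30, limma adjusted p = 0.738). Limma gave 0 of the 3 tested genes with an adjusted p under 0.05. At an unadjusted p under 0.05, 1 was higher and 0 lower (4.80% and 5.16% over all tested genes).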
